A study of Mus musculus with 12 samples.

Results

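Circular RNAs (circRNAs) of 4 mouse genes of epithelial polarity, Inadl, Myo5b, Magi1 and Pard3, were followed through circRNA sequencing of 4 mouse cell lines. A circRNA was a member if the deposited table named exactly one of these genes as its host, the gene whose exons it carries. This gave 47 of the 13474 circRNAs listed, and 42 of the 47 had at least 1 read. Inadl contributed 19 circRNAs (16 with reads), Myo5b 8 (6 with reads), Magi1 7 and Pard3 13, all with reads. In the breast cancer line 4T1, circRNAs of Inadl and Myo5b were several-fold lower than in the breast epithelial line Eph4-ev, and both were at or near 0 reads in the melanoma line B16F10 and the melanocyte line Melan-a. Pard3 circRNAs were present in all 4 lines. Of these, the circRNA of exons 3 to 4 had reads in every 4T1 library and was all but missing from Eph4-ev. Its call as higher in 4T1 was lost when any 1 library other than 4T1 replicate 1 was left out.

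A polarized epithelial cell keeps its apical and basolateral membranes apart with a set of scaffold complexes next to the tight junction. Inadl, which current annotations call Patj, encodes a scaffold with many PDZ domains in the Crumbs complex. Pard3 encodes the scaffold of the Par complex, which works with Par6 and atypical protein kinase C. Magi1 encodes a scaffold of the membrane-associated guanylate kinase family found at cell junctions. Myo5b encodes an unconventional myosin that carries recycling endosomes marked by Rab11 towards the apical membrane. A circRNA forms when a downstream splice donor is joined back to an upstream splice acceptor, and the read across that back-splice is what was counted.

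The lines were 4T1, Eph4-ev, B16F10 and Melan-a, with 3 libraries each, and each lineage had a table of its own. The labels describe 4T1 as breast cancer, Eph4-ev as breast epithelial, B16F10 as melanoma and Melan-a as melanocyte cells. They give no treatment, genotype or passage, and they do not say whether replicates were separate cultures, so p-values measure the spread between these libraries, which may be technical. Each group is a single line, so a difference between lines and a difference between tumour and non-tumour cells cannot be told apart. Linear RNA was digested with RNase R before sequencing. No linear RNA was analysed here, so a change in a circRNA and a change in its gene's transcription cannot be told apart. Libraries held 15572 to 44625 back-splice reads in 4T1, 50648 to 56649 in Eph4-ev, 16697 to 20011 in B16F10 and 25072 to 33557 in Melan-a. Levels below are back-splice reads scaled to a library total of 1000000 (RPM), and 1 read was worth 64.2 RPM in the shallowest library, a 4T1 one. The lines carried the circRNAs of their labelled lineage: 3 of 20 epithelial marker genes passed the filter in the mammary pair, and the summed level of all 20 was 1220 to 1750 RPM in 4T1 and 1340 to 1750 RPM in Eph4-ev, against 0 in B16F10 and at most 39.9 RPM in Melan-a. Among 14 melanocyte markers, 8 had reads in B16F10 and 9 in Melan-a, while 4T1 had none and Eph4-ev had reads of Mitf alone. None of 10 immune marker genes had a circRNA read in any line.

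The junctions that the results turn on are printed as the last 25 bases of the downstream exon in lower case, followed by the first 25 bases of the upstream exon in capitals, from GENCODE M21 transcripts on GRCm38, the same assembly as the tables' mm10, read along the host's strand. They are shown because a back-splice read is told from a linear one by this join alone, and because the Pard3 pair from exon 19 shares its capital side.
Inadl exons 15 to 17: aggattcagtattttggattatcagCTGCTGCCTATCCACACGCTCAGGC
Inadl exons 8 to 11: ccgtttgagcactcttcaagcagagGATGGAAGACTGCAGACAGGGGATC
Magi1 exons 6 to 10: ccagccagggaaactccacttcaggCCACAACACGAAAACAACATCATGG
Pard3 exons 3 to 4: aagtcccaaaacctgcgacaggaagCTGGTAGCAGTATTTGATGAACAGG
Pard3 exons 19 to 20: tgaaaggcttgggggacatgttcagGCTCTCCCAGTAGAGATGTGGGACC
Pard3 exons 19 to 22: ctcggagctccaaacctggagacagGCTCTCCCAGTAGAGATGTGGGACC

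In mm10 the hosts lie at chr4:98395785-98719603 (Inadl, 44 exons), chr18:74440936-74771493 (Myo5b, 40 exons), chr6:93675455-94283917 (Magi1, minus strand, 24 exons) and chr8:127063893-127612286 (Pard3, 25 exons), and exons are numbered along the transcript that holds the junctions. All 47 members began and ended at annotated exon edges of 1 transcript of their host, held 2 to 11 exons (median 3) and consisted of coding sequence only. Their spliced lengths ran between 249 and 1767 nt, and none held the start codon or the stop codon of the host. In 22 of the 47 the spliced length was a multiple of 3, so the host's reading frame met no stop codon on the way round the circle. This held for 12 of 19 Inadl circRNAs, 1 of 8 of Myo5b, 4 of 7 of Magi1 and 5 of 13 of Pard3. It held for Inadl exons 15 to 17 (429 nt) and Pard3 exons 3 to 4 (360 nt). In Myo5b exons 3 to 4 (317 nt) the host frame met a stop after 2 codons past the junction, and in Pard3 exons 19 to 20 (460 nt) after 4. These are properties of the annotated sequence; no peptide was measured here.

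Splice sites were reused within each gene. On chromosome 4, 5 Inadl circRNAs began at 98424276 and 3 ended at 98469604, and the 3 with that end held 174 of the 280 Inadl reads. On chromosome 8, 3 Pard3 circRNAs began at 127415570 (exon 19) and held 234 of the 346 Pard3 reads. On chromosome 18, 2 Myo5b circRNAs ended at 74580534 (exon 4) and held 243 of the 256 Myo5b reads. Members that share a site are not independent of each other.

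**Figure D1:**
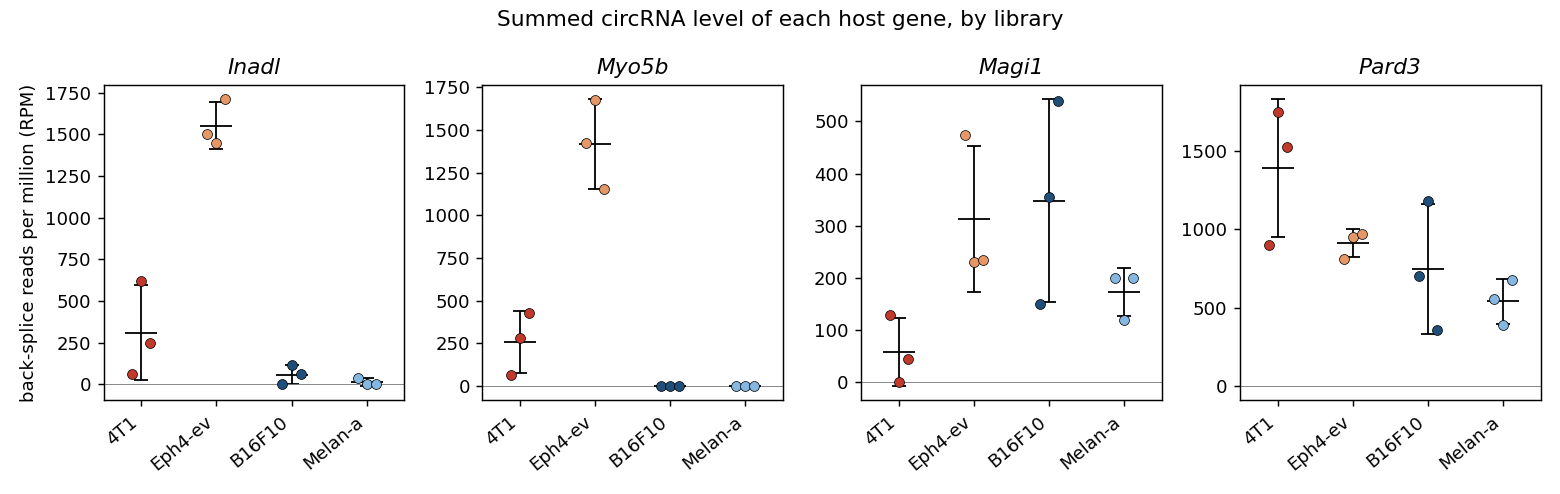
Summed circRNA level of each host gene in RPM on the vertical axis, for the 4 lines on the horizontal axis. Points are libraries, and bars are the mean and SD of 3 libraries, over all circRNAs in the table of each lineage. Inadl and Myo5b stood highest in all 3 Eph4-ev libraries, the Magi1 mean was lowest in 4T1, and the Pard3 ranges of lines next to each other in level overlapped.

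The comparison of 4T1 with Eph4-ev asks how circRNAs differ between a breast cancer line and a breast epithelial line. Summed over their circRNAs, 2 of the 4 hosts were lower in 4T1, Inadl and Myo5b, and none was higher. Of 1515 hosts tested in this comparison, 17.5% were called, 10.6% lower and 6.86% higher. Inadl and Myo5b passed the filter on low counts only through their Eph4-ev libraries. Inadl had 1, 11 and 11 reads in the 4T1 libraries, against 76, 82 and 95 reads in the Eph4-ev libraries. The level of Inadl was 310 ± 283 RPM in 4T1 and 1553 ± 139 RPM in Eph4-ev (mean ± SD of 3 libraries each), with no overlap, since the highest 4T1 library reached 620 RPM and the lowest Eph4-ev library stood at 1448 RPM. The fitted log2 difference was -2.47 (SE 0.47), with an adjusted p of 0.00239 (edgeR's quasi-likelihood test with Benjamini-Hochberg adjustment over all hosts). Myo5b had 1, 5 and 19 reads in 4T1, against 72, 95 and 64 reads in Eph4-ev. Its level was 257 ± 182 RPM in 4T1 and 1417 ± 262 RPM in Eph4-ev (mean ± SD of 3 libraries each), again without overlap. Its fitted log2 difference was -2.38 (SE 0.47), with an edgeR adjusted p of 0.00271. In RNA from whole cultures, fewer cells with a circRNA and less of it per cell cannot be told apart. Both calls were lost when Eph4-ev replicate 2 was left out (adjusted p of 0.0528 for Inadl and 0.0614 for Myo5b, edgeR), at log2 differences of -2.54 and -2.32. Leaving out that library also left 73 calls over all hosts, against 265 with all libraries.

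Magi1 and Pard3 did not pass the test in that comparison. Magi1 had 2, 0 and 2 reads in 4T1, against 24, 13 and 13 reads in Eph4-ev, so its highest 4T1 library (128 RPM) lay below its lowest Eph4-ev library (229 RPM). Its log2 difference was -2.61 (SE 0.98), as large as that of Inadl, with an edgeR adjusted p of 0.081. Pard3 had 14, 31 and 68 reads in 4T1, against 41, 54 and 54 reads in Eph4-ev. At 1390 ± 440 RPM in 4T1 and 912 ± 88.9 RPM in Eph4-ev (mean ± SD of 3 libraries each) its ranges overlapped, and the log2 difference was 0.49 (SE 0.33, edgeR adjusted p 0.346). The measured difference was below 0 for Inadl, Myo5b and Magi1 and above 0 for Pard3, whose direction this test does not settle.

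**Figure D2:**
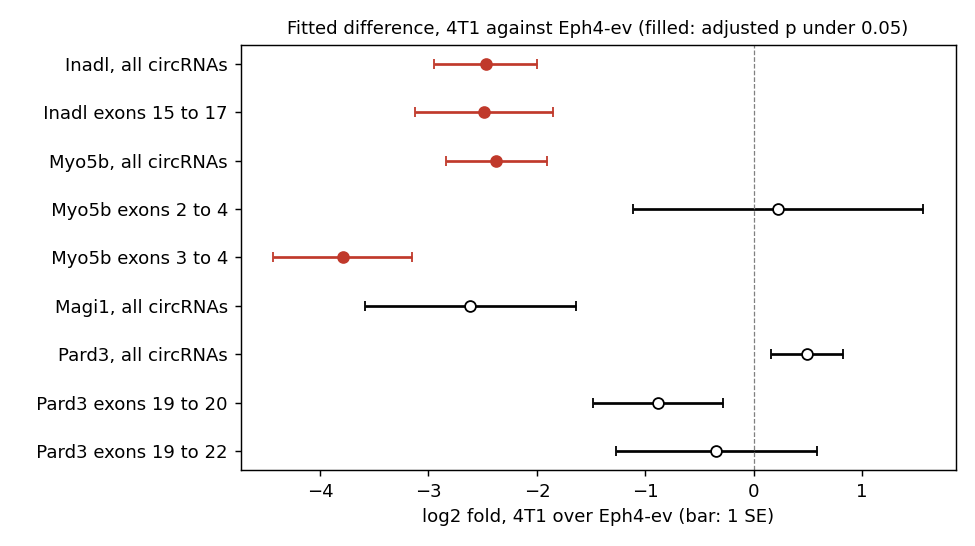
Fitted log2 difference of 4T1 over Eph4-ev on the horizontal axis, with bars of 1 SE, for each host sum and for each circRNA that was tested and had more than 3 reads in both lines. Filled points had an edgeR adjusted p under 0.05. Inadl and Myo5b host sums lay at -2.47 and -2.38, and Pard3 at 0.49.

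Only 7 of the 47 members passed the filter on low counts for the test of single circRNAs in the mammary pair, so most statements on single circRNAs below are counts without a test. Of these 7, 2 were lower and 1 was higher in 4T1, where 17.4% of all 1869 circRNAs tested were called (11.4% lower and 5.99% higher). The 3 that were called passed the filter only through the line in which they stood higher. That line was Eph4-ev for the Inadl and Myo5b circRNAs and 4T1 for the Pard3 one. These tests therefore covered circRNAs already picked for being high in that line. The leading Inadl circRNA, exons 15 to 17 at chr4:98456130-98469604, had 0, 5 and 8 reads in 4T1, against 43, 41 and 46 reads in Eph4-ev. It ranked 203 of the 8099 circRNAs with reads in Eph4-ev. Its log2 difference was -2.49 (SE 0.64), with an edgeR adjusted p of 0.0229. This call was lost when any 1 of the 3 Eph4-ev libraries was left out (edgeR adjusted p 0.0594 without replicate 1, 0.101 without replicate 2 and 0.0769 without replicate 3).

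The rest of Inadl was lower in 4T1 as well. Without the leading circRNA, Inadl had 1, 6 and 3 reads in 4T1, against 33, 41 and 49 reads in Eph4-ev, so the groups were apart in reads, and in RPM the highest 4T1 library (338 RPM) lay below the lowest Eph4-ev library (652 RPM). Of the 16 Inadl circRNAs with reads, 4 had reads in both lines, 12 had reads in Eph4-ev but none in 4T1, and none had reads in 4T1 alone. The depth of the lines differed, with 77932 reads in 4T1 and 162846 in Eph4-ev. Of the 9492 circRNAs listed for the mammary pair, 5882 had reads in 4T1 and 8099 in Eph4-ev, so 4T1 had fewer circRNAs with reads beyond Inadl as well. The share of all circRNAs read in 1 line alone is not given here, so these Inadl counts have no direct background. The circRNA of exons 8 to 11 at chr4:98424276-98431899 had 0 reads in every 4T1 library, against 5, 14 and 10 reads in Eph4-ev. With a floor of 3 reads over the 4T1 libraries, it was at least 4.63-fold lower in 4T1. The short circRNA of exons 16 to 17 at chr4:98465034-98469604, which shares its end with the leading circRNA, had 1, 4 and 0 reads in 4T1, against 5, 3 and 7 reads in Eph4-ev. Pooled over libraries it was 1.44-fold lower in 4T1 (95% counting interval 0.496 to 5.05), which does not separate the lines. The leading circRNA held 56.5% of the pooled Inadl reads in 4T1 and 51.4% in Eph4-ev. Averaged by library the order was the other way, 39.4 ± 36.7% in 4T1 and 51.7 ± 4.33% in Eph4-ev (mean ± SD of 3 libraries each). That difference of -12.3 points had a two-sided exact permutation p of 0.7, and 4T1 replicate 1 had only 1 Inadl read.

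Almost all Myo5b reads came from 2 circRNAs that end at exon 4, which were not tested against each other except by the share below. The circRNA of exons 3 to 4 at chr18:74577455-74580534 had 1, 5 and 1 reads in 4T1, against 67, 77 and 53 reads in Eph4-ev, where it ranked 115 of 8099. Its log2 difference was -3.79 (SE 0.64) with an edgeR adjusted p of 0.0042, and it stayed called in every alternative run, at adjusted p-values up to 0.0478. The circRNA of exons 2 to 4 at chr18:74569767-74580534 had 0, 0 and 18 reads in 4T1, against 0, 15 and 6 reads in Eph4-ev. All of its 4T1 reads lay in replicate 3, the deepest library of that line. Its log2 difference was 0.22 (SE 1.34, edgeR adjusted p 0.936), and the sign turned with the setting (-0.02 in DESeq2). Without 4T1 replicate 3 it was -5.41, which was not called (edgeR adjusted p 0.249). The remaining 4T1 libraries had 0 reads of it, so that fitted value does not measure a size. The share of Myo5b reads held by exons 3 to 4 was thus 100%, 100% and 5.26% in the 4T1 libraries, against 93.1%, 81.1% and 82.8% in Eph4-ev. That share averaged 68.4 ± 54.7% in 4T1 and 85.6 ± 6.48% in Eph4-ev (mean ± SD of 3 libraries each; two-sided exact permutation test, p = 1.0, where 0.1 is the smallest p that 3 against 3 allows). The other 4 Myo5b circRNAs with reads had 2 to 4 reads each, all in Eph4-ev.

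Magi1 was sparse, with 86 reads over all 12 libraries. Its main circRNA, exons 6 to 10 at chr6:93755014-93773689, had 0, 0 and 2 reads in 4T1, against 12, 7 and 6 reads in Eph4-ev. Pooled, it was 5.98-fold lower in 4T1 (95% counting interval 1.49 to 52.1), but its edgeR adjusted p was 0.134. The circRNA of exons 6 to 12 at chr6:93745434-93773689, which starts from the same exon, had 2, 0 and 0 reads in 4T1, against 7, 3 and 3 reads in Eph4-ev. Its difference lies within counting error (3.11-fold lower in 4T1, 95% counting interval 0.704 to 28.4).

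Within Pard3, 1 circRNA was called between the mammary lines, while the sum over the gene did not pass the test. The circRNA of exons 3 to 4 at chr8:127277021-127306508 had 3, 7 and 12 reads in 4T1, against 0, 1 and 0 reads in Eph4-ev. Every 4T1 library held it and a single read was seen in Eph4-ev, so the lines did not overlap. Pooled, it was 46.0-fold higher in 4T1 (95% counting interval 7.43 to 1900), with an edgeR adjusted p of 0.0207. The call was lost without a filter on low counts (adjusted p 0.0984, edgeR) and when any 1 library other than 4T1 replicate 1 was left out (0.0828 to 0.116). The neighbouring circRNA of exons 3 to 5 at chr8:127277021-127324172, which starts at the same site, had 0, 7 and 6 reads in 4T1, against 0 in all 3 Eph4-ev libraries, at least 9.05-fold higher in 4T1. It did not pass the filter and has no test.

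Exons 19 to 22 supplied most Pard3 reads in Eph4-ev. The leading circRNA, exons 19 to 20 at chr8:127415570-127426753, had 4, 3 and 20 reads in 4T1, against 13, 38 and 32 reads in Eph4-ev (log2 difference -0.89, SE 0.60, edgeR adjusted p 0.365). The circRNA of exons 19 to 22 at chr8:127415570-127474615 had 2, 2 and 12 reads in 4T1, against 22, 2 and 8 reads in Eph4-ev (log2 difference -0.34, SE 0.93, edgeR adjusted p 0.849). The leading circRNA held 28.6%, 9.68% and 29.4% of Pard3 reads in the 4T1 libraries, against 31.7%, 70.4% and 59.3% in Eph4-ev. The ranges did not overlap, and the mean difference of -31.2 percentage points reached p = 0.1, the smallest that a two-sided exact permutation test of 3 against 3 allows.

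Grouped by position, a grouping made after the values were seen and so given without a test, 4 circRNAs within exons 2 to 5 had 4, 16 and 24 reads in 4T1, against 1, 3 and 5 reads in Eph4-ev. They held 38.9% of pooled Pard3 reads in 4T1 (95% exact interval 29.9 to 48.6%) and 6.04% in Eph4-ev (2.80 to 11.2%), intervals that cover counting error only. The 6 circRNAs within exons 19 to 22 held 51.3% in 4T1 (41.7 to 60.8%) and 85.9% in Eph4-ev (79.3 to 91.1%). In B16F10 the early group held 12.5% (4.19 to 26.8%) and in Melan-a 4.55% (0.555 to 15.5%). Among the Pard3 circRNAs, 7 had reads in both mammary lines, 5 in 4T1 alone and 1 in Eph4-ev alone. Of the 9492 circRNAs listed for the mammary pair, 5882 had reads in 4T1 and 8099 in Eph4-ev. The share of all circRNAs read in 1 line alone is not given here, so these Pard3 counts have no direct background. The 5 seen in 4T1 alone, out of the shallower line, included exons 23 to 24 at chr8:127593061-127603186 with 2, 1 and 2 reads, and exons 21 to 22 at chr8:127460274-127474615, whose 9 reads all came from replicate 3. The 5 reads of exons 20 to 21 and the 2 reads of exons 2 to 4 all came from replicate 2.

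**Figure D3:**
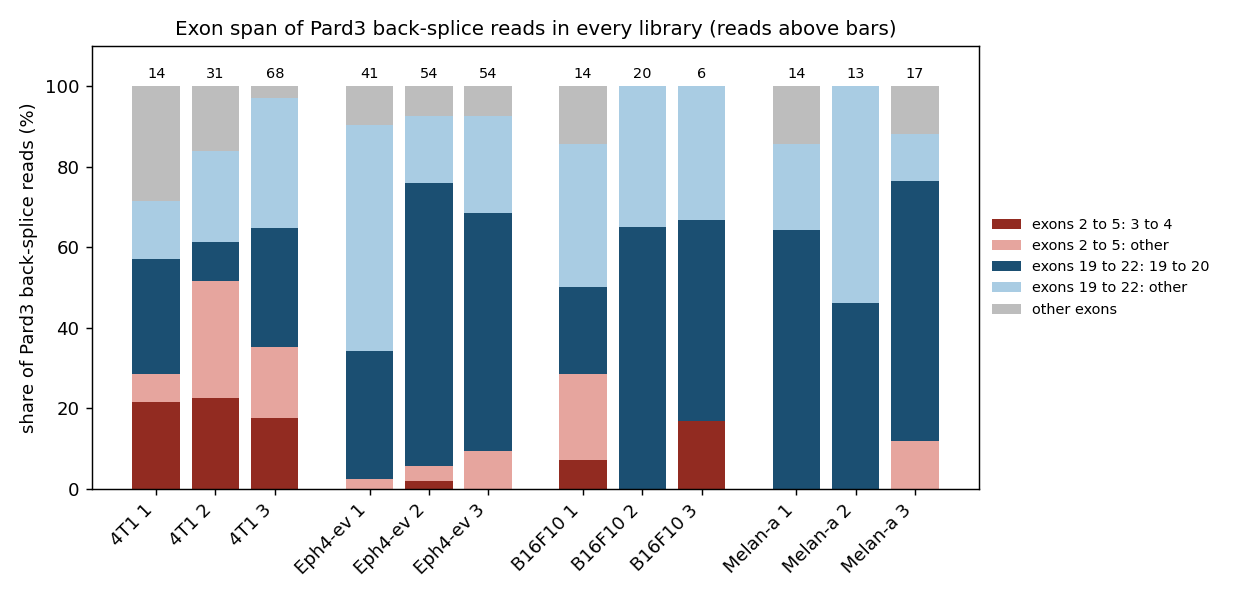
Share of Pard3 back-splice reads in percent on the vertical axis, for each library on the horizontal axis, split by the exons that the circRNA spans, with the number of reads above each bar. Red parts are circRNAs within exons 2 to 5 and blue parts those within exons 19 to 22. The dark red part, exons 3 to 4, is present in all 3 4T1 libraries and in 1 of the 3 Eph4-ev libraries.

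Together the 4 hosts showed fewer different circRNAs in each 4T1 library than in any Eph4-ev library. There were 9, 13 and 13 in the 4T1 libraries, against 20, 27 and 25 in the Eph4-ev libraries (two-sided exact permutation p = 0.1, the smallest possible). At equal depth, with every mammary library thinned to 15572 reads, there were 9, 12 and 9 in 4T1, against 17, 16 and 18 in Eph4-ev, and the groups still did not overlap. The difference in means was -12.3 at full depth and -7.0 after thinning. The hosts did not share this direction. Over the libraries of a line, 4 Inadl circRNAs had reads in 4T1 and 16 in Eph4-ev. For Myo5b there were 2 and 6, and for Magi1 2 and 5. Pard3 went the other way, with 12 in 4T1 and 8 in Eph4-ev. All circRNAs together also numbered fewer in 4T1, with 3170, 3134 and 3669 in 4T1, against 5047, 5503 and 4962 in Eph4-ev at full depth. After thinning there were 3170, 3017 and 3063 in 4T1, against 3628, 3820 and 3538 in Eph4-ev. The 4T1 mean was then 0.588 of the Eph4-ev mean for the 4 hosts and 0.842 for all circRNAs, a difference that was not tested.

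**Figure D4:**
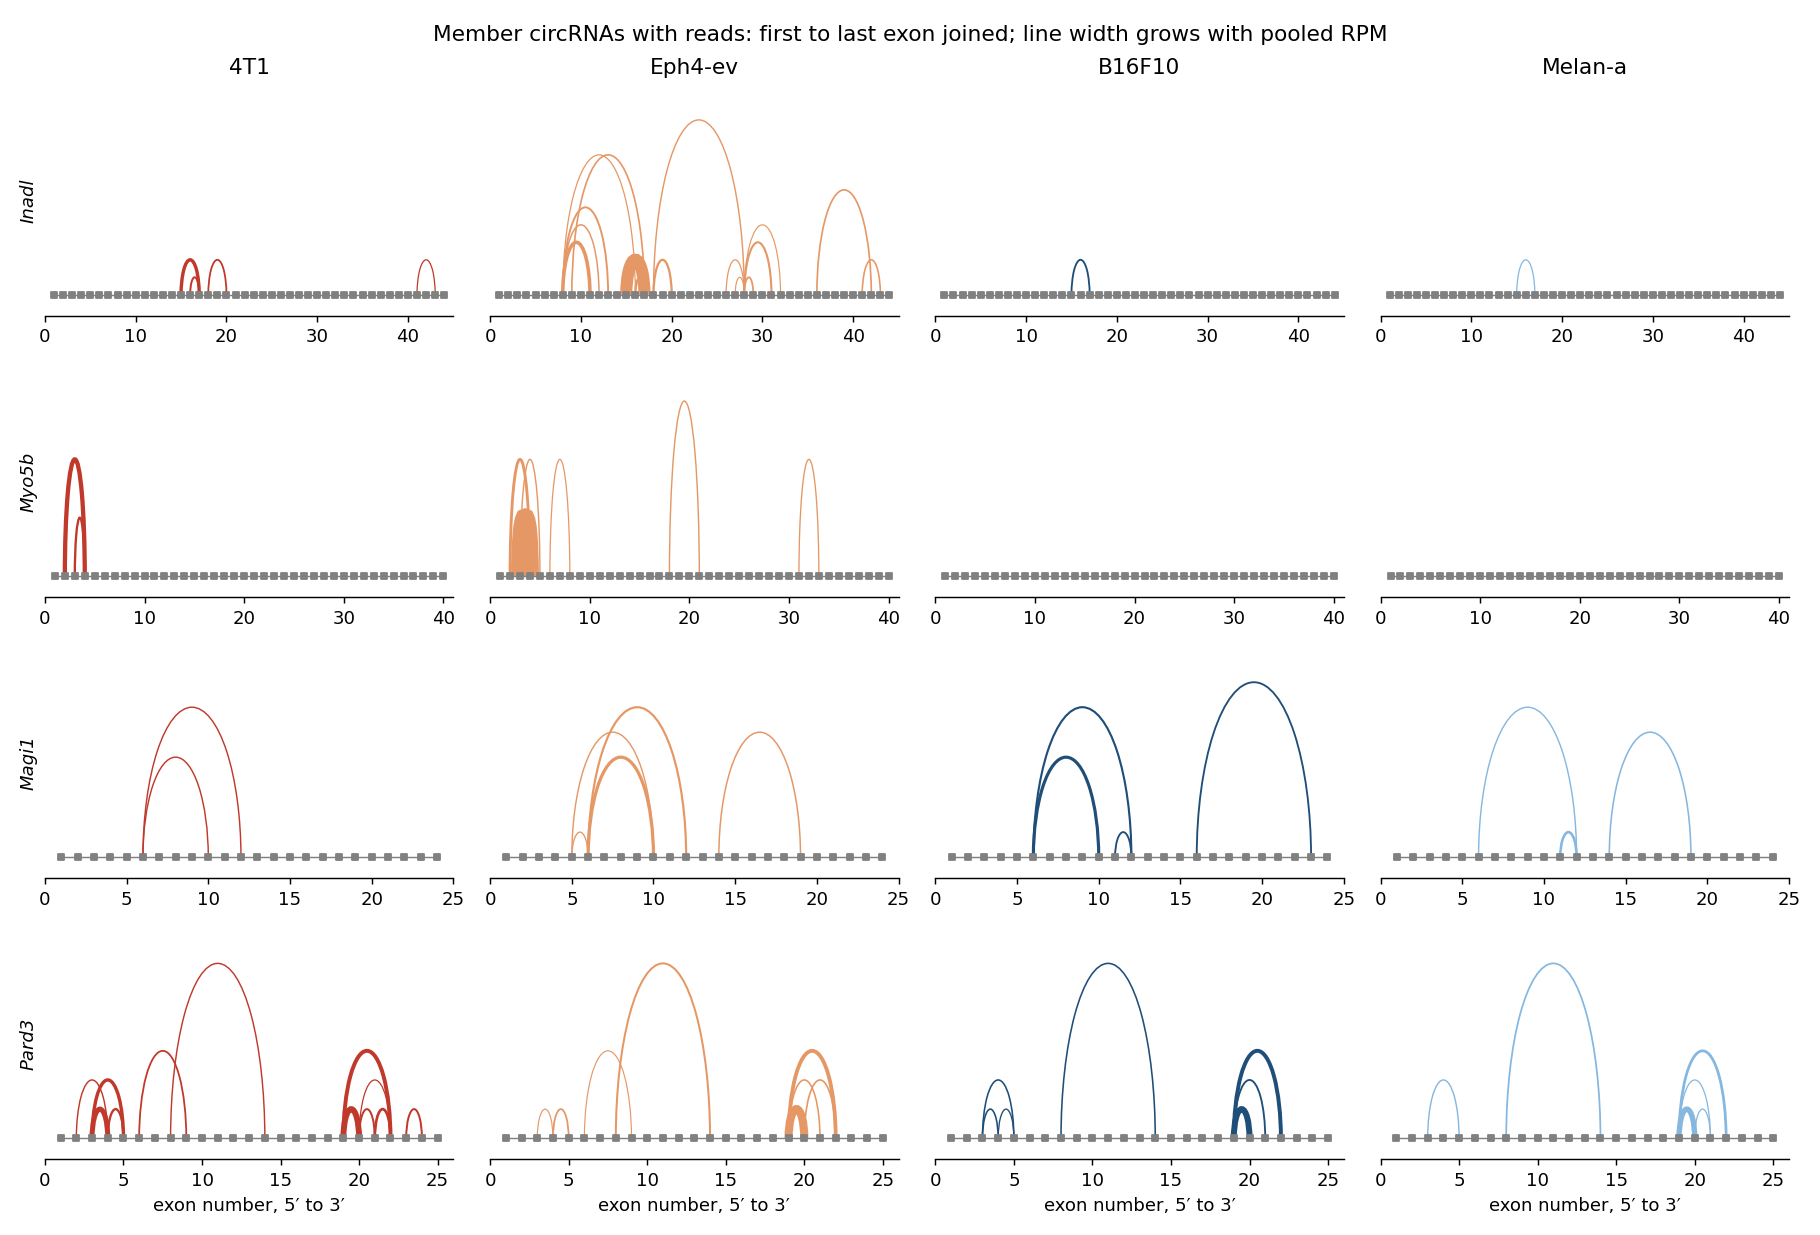
Each arc joins the first and the last exon (horizontal axis, exon number from 5′ to 3′) of a member circRNA with reads, for 1 gene per row and 1 line per column. Arc height grows with the number of exons spanned and arc width with the pooled RPM, and grey squares are exons. Eph4-ev shows 16 Inadl arcs and 4T1 4, both melanocytic lines have 1 Inadl arc and no Myo5b arc, and the widest Pard3 arcs at exons 3 to 5 are in 4T1.

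The comparison of B16F10 with Melan-a sets the melanoma line against the melanocyte line. Only the Pard3 sum and its leading circRNA had enough reads for the test, and neither was called. The background was 7.13% of 898 hosts and 10.9% of 874 circRNAs, and neither had an unadjusted p under 0.05 or was called by DESeq2. Pard3 had 14, 20 and 6 reads in B16F10, against 14, 13 and 17 reads in Melan-a. Its level was 746 ± 413 RPM in B16F10 and 541 ± 145 RPM in Melan-a (mean ± SD of 3 libraries each), with overlapping ranges (log2 difference 0.38, SE 0.49, edgeR adjusted p 0.732). Its leading circRNA had 3, 13 and 3 reads in B16F10, against 9, 6 and 11 reads in Melan-a (log2 difference 0.11, SE 0.70, edgeR adjusted p 0.952). Pard3 exons 3 to 4 had 1, 0 and 1 reads in B16F10, against 0 in all Melan-a libraries, too few to compare.

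Magi1 reads were few in the melanocytic lines, which limits any comparison of its make-up. The sum was 3, 6 and 9 reads in B16F10, against 5, 4 and 5 reads in Melan-a. Exons 6 to 10 had 3, 1 and 4 reads in B16F10, against 0 in all 3 Melan-a libraries, at least 4.16-fold higher in B16F10. Exons 11 to 12 at chr6:93745434-93747374, listed in the melanocyte table alone, had 0, 0 and 3 reads in B16F10, against 5, 2 and 2 reads in Melan-a. This last circRNA held 11.1 ± 19.2% of Magi1 reads per library in B16F10 and 63.3 ± 32.1% in Melan-a (mean ± SD of 3 libraries each). By library it held 0%, 0% and 33.3% in B16F10, against 100%, 50% and 40% in Melan-a. The ranges did not overlap, and the two-sided exact permutation p was 0.1, the smallest that 3 against 3 allows. With 3 to 9 Magi1 reads a library, each share was loosely set. In the 2 libraries closest in share, the exact 95% interval was 7.49 to 70.1% (B16F10 replicate 3) and 5.27 to 85.3% (Melan-a replicate 3). Inadl had 0, 2 and 1 reads in B16F10, against 1, 0 and 0 reads in Melan-a, all from exons 15 to 17. Myo5b had 0 reads in all 6 libraries, which allows up to 55.9 RPM in B16F10 and 35.8 RPM in Melan-a (3 reads over a line's libraries). These limits and the counting intervals cover counting error only.

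Between lineages, levels come from separately scaled tables, so counts of the circRNAs that both tables list were fitted together over all 12 libraries. These comparisons reuse the libraries compared above and are not independent of them. Inadl was higher in Eph4-ev than in Melan-a, with 76, 80 and 82 reads on these shared circRNAs in Eph4-ev, against 1, 0 and 0 in Melan-a. The pooled ratio was 122 (95% counting interval 21.8 to 4860), with an edgeR adjusted p of 3.32e-06. Myo5b was at least 39.6-fold higher in Eph4-ev than in Melan-a (edgeR adjusted p 3e-06). These 2 of the 4 hosts were called there, where 27.2% of 1204 hosts were called and 16.1% were higher. Both passed the filter on low counts only through Eph4-ev. Magi1 had 24, 13 and 13 reads in Eph4-ev, against 0, 2 and 3 in Melan-a on the shared circRNAs (log2 difference 2.18, SE 1.01, edgeR adjusted p 0.112). That sum leaves out exons 11 to 12, which held 9 of its 14 reads in Melan-a. For Pard3 the log2 difference was 0.57 (SE 0.43, edgeR adjusted p 0.353).

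Among single circRNAs, 2 of the 4 members tested were higher in Eph4-ev than in Melan-a, beside 28.2% of 1403 circRNAs called and 17.1% higher. These were Inadl exons 15 to 17, at a pooled ratio of 66.9 (95% counting interval 11.8 to 2660; edgeR adjusted p 0.000439), and Myo5b exons 3 to 4, at least 33.8-fold higher (edgeR adjusted p 4.89e-05). Both passed the filter on low counts only through Eph4-ev, so they entered the test because they were high there.

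In 4T1 set against B16F10, 1 of the 4 hosts was called, beside 24.9% of all hosts and 12.7% higher. Myo5b was at least 5.74-fold higher in 4T1 (edgeR adjusted p 0.00601). Inadl had 1, 10 and 11 reads on the shared circRNAs in 4T1, against 0, 2 and 1 in B16F10. Its pooled ratio of 5.05 had a 95% counting interval of 1.52 to 26.3, and its edgeR adjusted p was 0.113. Magi1 ran the other way, with 2, 0 and 2 reads in 4T1, against 3, 5 and 4 in B16F10 (log2 difference -2.26, SE 1.12, edgeR adjusted p 0.146). Pard3 gave 0.63 (SE 0.44, edgeR adjusted p 0.323). None of the 4 member circRNAs tested was called by edgeR, beside 24.2% of all circRNAs. The count was 1 at an unadjusted p under 0.05 (Myo5b exons 3 to 4) and 0 in DESeq2.

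Whether the tumour line differed from its partner in the same way in both lineages was tested as an interaction. It could be estimated for 3 hosts and passed for none with edgeR, where 11.7% of 1204 hosts passed. At an unadjusted p under 0.05 the count was 2, and in DESeq2 it was 1. Magi1 came closest, with a log2 interaction of -4.45 (SE 1.51) and an edgeR adjusted p of 0.0534, which became 0.0349 in DESeq2, 0.0356 without 4T1 replicate 1 and 0.041 without Melan-a replicate 3 (edgeR). The Magi1 value uses the circRNAs that both tables list, where B16F10 stood 3.75-fold over Melan-a in pooled reads (95% counting interval 1.23 to 13.6). Over all Magi1 circRNAs that ratio was 2.01 (0.944 to 4.36). For Inadl, with at most 2 reads in any melanocytic library, the edgeR adjusted p was 0.0826, and 0.0452 without 4T1 replicate 2. Pard3 gave 0.06 (SE 0.63, edgeR adjusted p 1.0). Myo5b had no reads in either melanocytic line, so no interaction could be had. Of 3 single circRNAs none passed with edgeR (background 11.5%), 1 had an unadjusted p under 0.05 and none passed in DESeq2.

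The order of levels differed by gene. Inadl and Myo5b were highest in Eph4-ev, then 4T1, then the melanocytic lines. For Inadl the 4T1 range of 64.2 to 620 RPM overlapped the B16F10 range of 0 to 118 RPM, and B16F10 overlapped Melan-a (0 to 39.9 RPM). For Myo5b each 4T1 library lay above the melanocytic lines, all at 0. Magi1 ran B16F10 (348 ± 195 RPM), Eph4-ev (312 ± 140 RPM), Melan-a (172 ± 46.1 RPM) and 4T1 (57.8 ± 65.2 RPM; mean ± SD of 3 libraries each). Of these neighbours B16F10 and Eph4-ev overlapped. The lowest Eph4-ev library (229 RPM) was above the highest Melan-a library (199 RPM), and 4T1 reached 128 RPM beside a Melan-a minimum of 119 RPM. This order rests on circRNAs that the melanocyte table alone lists, with 6 of the 18 Magi1 reads in B16F10 and 9 of the 14 in Melan-a. On the circRNAs that both tables list, Magi1 ran Eph4-ev (312 ± 140 RPM), B16F10 (228 ± 73.3 RPM), Melan-a (59.6 ± 59.6 RPM) and 4T1 (57.8 ± 65.2 RPM), with B16F10 overlapping Eph4-ev and Melan-a overlapping 4T1. Pard3 ran 4T1, Eph4-ev, B16F10 and Melan-a, and each neighbouring pair overlapped.

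Other genes of the same machinery were taken from lists of symbols, some of them older and newer names of 1 gene. Of 35 symbols for the Crumbs, Par and Scribble complexes, 9 hosts were tested between 4T1 and Eph4-ev, 2 were lower and none was higher, with a median log2 difference of 0.38 against -0.09 over all hosts. Over all hosts 17.5% were called and 10.6% were lower, and 1 of the 2 is Inadl itself. The other was Dlg5, a scaffold of the same guanylate kinase family as Magi1. Dlg5 had 1, 1 and 4 reads in 4T1, against 21, 24 and 21 reads in Eph4-ev (log2 difference -2.52, SE 0.76, edgeR adjusted p 0.0324). Like Inadl, it passed the filter on low counts in that comparison only through Eph4-ev. It was also called lower in 4T1 than in B16F10 (log2 difference -3.38, SE 0.77, edgeR adjusted p 0.00161) and in the interaction (-3.67, SE 0.98, edgeR adjusted p 0.0141). Cdc42, the small GTPase that activates the Par complex, and Dlg1, a Scribble-module scaffold, were not called between the mammary lines. They were higher in 4T1 than in B16F10, by log2 2.23 (SE 0.76, edgeR adjusted p 0.0306) for Cdc42 and 1.82 (SE 0.58, edgeR adjusted p 0.0217) for Dlg1.

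Of 39 symbols for tight and adherens junctions, 9 hosts were tested between 4T1 and Eph4-ev and 0 were called by edgeR or DESeq2, 4 with an unadjusted p under 0.05 (median log2 difference 0.04 against -0.09 over all hosts). Between Eph4-ev and Melan-a, 4 of 9 were called, all higher in Eph4-ev, beside 27.2% of all hosts called and 16.1% higher. They included Ctnna1, which encodes alpha-catenin (log2 difference 2.03, SE 0.32, edgeR adjusted p 1.78e-05), and Mllt4, which encodes afadin (1.21, SE 0.40, edgeR adjusted p 0.0231). Cgnl1, a tight junction gene, was at least 7.89-fold higher in Eph4-ev (edgeR adjusted p 0.0192). It had 0 reads in both melanocytic lines and passed the filter on low counts only through the mammary lines. Between 4T1 and B16F10, 3 of 9 were called, beside 24.9% of all hosts. Ctnna1 (2.00, SE 0.36) and Mllt4 (1.22, SE 0.42) were higher in 4T1, and Nectin3 was at least 4.84-fold lower, with 0 reads in 4T1 and 10 in B16F10 (edgeR adjusted p 0.0173).

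Of 34 symbols for apical recycling and transport, 9 were tested in the mammary pair and Myo5b alone was called, beside 17.5% of all hosts, with a median log2 difference of -0.94 against -0.09 over all hosts. Among the genes of its Rab11 partners, Rab11a (log2 difference -1.88, SE 0.74, edgeR adjusted p 0.0926) and Rab11fip3 (-3.24, SE 1.15, edgeR adjusted p 0.0658) did not pass. Rab11fip5, which encodes a Rab11-binding protein, was at least 11.1-fold higher in Eph4-ev than in Melan-a (edgeR adjusted p 0.00271). It had 0 reads in Melan-a and passed the filter on low counts only through the mammary lines. Of the 3 epithelial marker hosts tested, Epcam, Esrp1 and Grhl2, 0 were called between 4T1 and Eph4-ev by edgeR or DESeq2, and 0 had an unadjusted p under 0.05 (median log2 difference 0.14 against -0.09 over all hosts). All 3 were called higher in Eph4-ev than in Melan-a, beside 27.2% of all hosts called and 16.1% higher. All 3 were also called higher in 4T1 than in B16F10, beside 24.9% called and 12.7% higher. Esrp1 had 1 read in Melan-a, and otherwise the 3 had 0 reads in the melanocytic lines. They passed the filter on low counts only through the mammary lines, so these tests covered hosts already picked for being high there. Esrp1, an epithelial splicing regulator, had 7, 13 and 10 reads in 4T1, against 30, 45 and 55 reads in Eph4-ev (edgeR adjusted p 0.18). Of 13 mesenchymal markers 0 had reads in 4T1, and Zeb1 and Fn1 had reads in Eph4-ev (118 to 177 RPM in sum). Between B16F10 and Melan-a, 4 hosts of the Crumbs, Par and Scribble list, 5 of the junction list and 4 of the recycling list were tested. None was called by edgeR or DESeq2, beside 7.13% of 898 hosts called by edgeR, and 0, 0 and 1 had an unadjusted p under 0.05. The part of cell state in the Inadl and Myo5b differences was not tested.

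Hosts with the most similar profile were ranked by Pearson's r of log2 CPM over the 12 libraries, among the 1203 other hosts in the joint fit. The libraries of a line share their line, so r mostly reflects which lines carry the gene. For Inadl they were Fscn1 (0.955), Myo5b (0.951) and Osbpl3 (0.941). For Myo5b they were Fscn1 (0.988), Thsd4 (0.961) and Epha2 (0.954). Magi1 had lower values, with Scmh1 (0.827) and AU040320 (0.825), and Pard3 had Tecpr2 (0.939), Ncor1 (0.858) and Tnrc18 (0.811). Among the members themselves, r was 0.341 for Inadl with Magi1, 0.456 for Inadl with Pard3 and -0.15 for Magi1 with Pard3.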

How the data were processed

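Total RNA was treated with RNase R and circRNAs were detected with CIRI2 and CIRCexplorer2, per the labels' protocols. Per the submitters' processing notes the genome build was mm10. The sources used here do not give how the callers' reads were combined, or the annotation behind the host names. The deposited count columns hold whole back-splice reads per circRNA and library. The deposited RPM columns are those counts scaled to 1000000 per column: 100% of values gave whole reads within 0.01, equal to the count columns (largest difference 0), so the count test on recovered reads made the same calls (325 of 1869 circRNAs between 4T1 and Eph4-ev).

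Host values are sums over circRNAs with a single host. Each lineage was fitted alone, and the 8928 circRNAs listed in both tables were fitted over all 12 libraries. Fits used edgeR 4.0.16 (quasi-likelihood F test, TMM, filterByExpr at count 5 and total 10) in R 4.3.3, with Benjamini-Hochberg adjustment over all features and calls at an adjusted p under 0.05. Scripts were tested on simulated data. Alternatives were DESeq2 1.42.0, RLE or total scaling, no filter, a minimum count of 10, a replicate block, thinning, and leaving out each library. Pooled ratios, intervals (95%) and bounds (a floor of 3 reads over a line's libraries) use total reads. Shares were compared where both lines had at least 10 host reads, a minimum set after the counts were seen. Without molecular identifiers in the labels, reads need not be separate molecules. Exons and junctions come from GENCODE M21. Single circRNAs are given in every library where they had at least 20 reads or a call, and others by counts or as named after their values were seen. Members and lists were chosen with earlier results of these data known. Some results on other genes of the lists are not reported here.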

Additional observations from a re-analysis of the deposited data

How the results depend on the processing

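Of the 4T1 against Eph4-ev calls of host sums, Inadl (log2 difference -3.16 to -2.17) and Myo5b (-3.22 to -2.08) kept their direction under every alternative and lost the call only without Eph4-ev replicate 2. Leaving out 1 library put the difference in mean share of the leading circRNA, 4T1 minus Eph4-ev, between -28.9 and 7.42 points for Inadl. For Myo5b it lay between -33.0 and 14.4 points. Leaving out 1 library moved the log2 interaction of Inadl between -6.59 and -3.42, of Magi1 between -5.25 and -3.96 (-4.54 in DESeq2, passing) and of Pard3 between -0.30 and 0.56 (-0.10 with no filter, the sign reversed). Pard3 in B16F10 against Melan-a ran between -0.06 and 0.76. Single circRNAs that changed sign were all uncalled. Myo5b exons 2 to 4 in 4T1 against Eph4-ev ran between -5.41 and 0.67 (-0.07 with no filter, -0.02 in DESeq2). The -5.41 was fitted to 4T1 libraries with 0 reads of it. Pard3 exons 19 to 20 ran between -0.97 and 0.50 in B16F10 against Melan-a and between -1.02 and 0.69 in 4T1 against B16F10. Pard3 exons 19 to 22 ran between -1.11 and 0.71 in 4T1 against Eph4-ev, between -0.37 and 1.77 in Eph4-ev against Melan-a and between -2.04 and 0.04 in the interaction. The number of distinct circRNAs differed by -7.0 after thinning.

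In 4T1 against Eph4-ev, thinning left 177 circRNAs against 325 and 156 hosts against 265, and leaving out 1 library gave 72 to 247 and 73 to 261. In Eph4-ev against Melan-a, thinning left 251 circRNAs against 396, and leaving out 1 library gave 262 to 454. In 4T1 against B16F10, no filter gave 225 circRNAs against 340, and leaving out 1 library gave 222 to 365. In the interaction, thinning left 101 circRNAs against 162, and leaving out 1 library gave 103 to 169. In B16F10 against Melan-a, leaving out 1 library gave 42 to 145 circRNAs against 95 and 32 to 123 hosts against 64. The lowest mammary counts came without Eph4-ev replicate 2, and the highest melanocytic ones without Melan-a replicate 2. The cause was not tested.

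Libraries with the same replicate number did not deviate together (correlations of -0.06 to 0.07), so the numbers do not pair them. With the replicate number as a block, 248 circRNAs were called in 4T1 against Eph4-ev. Inadl gave -2.57 and Myo5b -2.48, both still called, and Pard3 exons 3 to 4 lost its call (adjusted p 0.0724, edgeR). The sign turned for Myo5b exons 2 to 4 (-0.52) and, in B16F10 against Melan-a, Pard3 exons 19 to 20 (-0.07). Pard3 exons 3 to 4 could not be tested at a minimum count of 10 or after thinning. Low read counts limit most members: of 40 with reads in the mammary pair 7 could be tested, and of 14 with reads in the melanocytic pair 1.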
